A study of Homo sapiens with 6 samples.

Results

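Ion channels and ion pumps were examined in ARPE-19 cells, a human line derived from retinal pigment epithelium (RPE), after silencing of METTL3, the catalytic subunit of the enzyme complex that places N6-methyladenosine (m6A) marks on mRNA. The members were the protein-coding genes whose symbols begin with the prefixes of the potassium (KCN), sodium (SCN), calcium (CACN), chloride (CLCN, CLIC, ANO, BEST, LRRC8, CFTR), transient receptor potential (TRP), glutamate receptor (GRIA, GRIK, GRIN), purinergic (P2RX, P2RY), PIEZO, HCN, CNG, ASIC, calcium release (RYR, ITPR) and store entry (ORAI, STIM) families, of the P-type pumps (ATP1A, ATP1B, ATP2A, ATP2B) and of the aquaporins (AQP). The deposited table listed 74 such genes among 7758 genes of all kinds. The GENCODE release 29 annotation holds 286 protein-coding genes that match the same prefixes, so 25.9% of them were listed, against 33.8% of the 19951 annotated protein-coding genes. The other members were not analysed here.

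Cells of the sh-Control group carried a scrambled hairpin and cells of the sh-METTL3 group a hairpin against METTL3, and both groups were exposed for 24 h to 1 μg/ml of lipopolysaccharide (LPS), a component of bacterial outer membranes that triggers an inflammatory response. Each group had 3 mRNA-seq libraries made from total RNA, and no unstimulated cells were among the samples used here, so every difference is between hairpins under LPS. The study's methods describe lentiviral delivery and drug selection of stably transduced cells, and neither they nor the labels give the origin of replicates (separate cultures or 1), so that p-values measure the spread between these libraries only. The comparison asks which ion channel and pump transcripts differ in level when METTL3 is silenced in LPS-stimulated ARPE-19 cells.

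Values are scaled counts, that is, gene read counts divided by a size factor for the library, and fold changes are differences of log2(scaled count + 1), sh-METTL3 minus sh-Control. Each library had between 10898434 and 17750052 reads on listed genes. Means are given ± SD of 3 libraries, and adjusted p-values come from limma, with a threshold of 0.05. Benjamini-Hochberg adjustment was over 22977 genes, the number that the authors tested as inferred from their p-values. The table holds only genes that the authors themselves called different on these libraries, so a further call is not independent evidence. METTL3 itself was at 1154, 1108 and 1091 in sh-Control and at 966, 1001 and 765 in sh-METTL3, so its mRNA was 18.5% lower (log2 fold change -0.30, SE 0.10, adjusted p = 0.0320), and the groups did not overlap. That call was lost in 7 of 17 alternative analyses, among them the omission of sh-Control replicate 1, 2 or 3 (adjusted p = 0.124, 0.0958 and 0.0684). Replicate 3 of sh-METTL3 was the low library, and the METTL3 difference was smaller without it. In bulk RNA, fewer cells of a kind and less RNA per cell cannot be told apart.

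The RPE is a polarised epithelium that moves ions and water between the photoreceptors and the choroid. Its Na,K-ATPase sets up the sodium and potassium gradients, potassium channels recycle potassium and hold the membrane voltage, and chloride channels carry the anion that water follows. Calcium enters through voltage-gated, TRP and store-operated channels, is released from the endoplasmic reticulum through inositol trisphosphate receptors after purinergic stimulation, and is removed by calcium pumps.

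All 74 members passed the test, of which 42 were higher and 32 lower in sh-METTL3. Because of how the table was made, 97.9% of all listed genes passed, and 46.6% of all listed genes passed as higher and 51.3% as lower. Of the members 56.8% were higher and 43.2% lower, against 42.8% and 55.1% of the 6740 listed protein-coding genes, the kind of gene that the members are. By mean scaled count, 55% of the 20 members at 500 or more passed as higher, against 38.0% of protein-coding and 38.1% of all listed genes. Between 50 and 500 it was 51.35% of the 37 members against 46.7% and 51.42%, so that no excess was seen there over genes of all kinds, and under 50 it was 70.6% of the 17 members against 59.4% and 65.7%. The groups did not overlap for 73 of the 74 members (98.65%), against 98.5% of all listed genes. The exception was KCNQ3, a subunit of the M-current channel, with 254, 222 and 179 in sh-Control and 250.03, 329 and 325 in sh-METTL3.

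Absolute fold changes of the members were larger at the median than those of all listed genes, a difference that is given as a description. A call with an absolute log2 fold change of at least 1 was made for 45 members (60.8%, 27 higher and 18 lower), against 30.5% of all listed genes and 25.1% of the protein-coding ones. The median log2 fold change of the members was 0.32 against -0.21 for all listed genes, and the median absolute value was 1.24 against 0.62 (-0.25 and 0.54 for protein-coding genes). As few listed genes lie near 0, the signed median mainly follows which direction holds more genes. Low genes show larger folds in this table, and the median scaled count was 132 for members and 582 for all listed genes. Among genes with a mean of at least 500, 6 of 20 members (30.0%) moved by 1 log2 unit or more, against 9.36% of 4134 listed genes (9.27% of the protein-coding ones). Between 50 and 500, it was 22 of 37 members (59.5%) against 34.8% of 2398 genes (33.98%), and under 50 it was 17 of 17 against 93.6% of 1226 (93.8%). Within each band the members still lay lower, with median scaled counts of 995 against 1454, 124.6 against 210.6 and 14.2 against 18.7. The bands thus match level only in part.

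**Figure D1:**
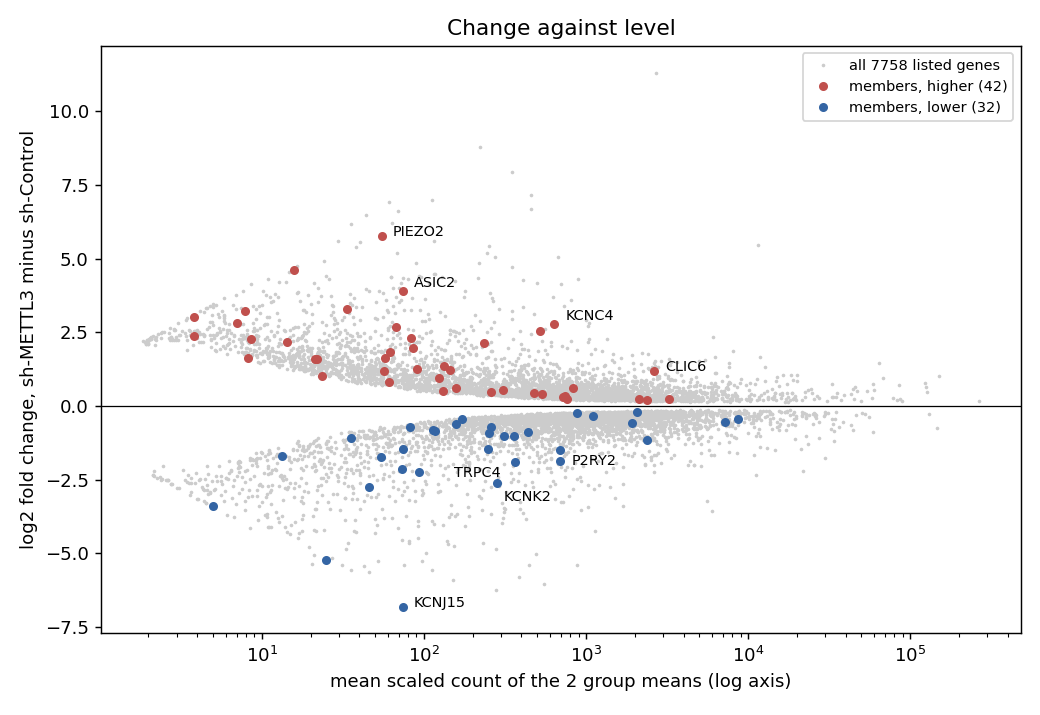
Log2 fold change (sh-METTL3 minus sh-Control, of log2(scaled count + 1)) of each listed gene against its mean scaled count on a log axis. Grey points are all 7758 listed genes, red points the 42 members that were higher and blue points the 32 that were lower, and the empty band around 0 exists because only genes called by the authors were listed.

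In several families all listed genes moved in 1 direction, though most annotated genes of these families were not listed. All 5 listed voltage-gated sodium channel genes, all 3 calcium channel genes and all 7 genes of the PIEZO, HCN, CNG and ASIC families were higher in sh-METTL3, with median log2 fold changes of 0.95, 1.61 and 2.12. All 4 P-type pump genes and all 4 purinergic receptor genes were lower, with medians of -0.48 and -1.17. The annotation holds 14 sodium, 26 calcium and 17 other cation channel genes, and 15 pump and 18 purinergic receptor genes. Of 21 potassium channel genes 13 were higher and 8 lower (median 0.39), and of 14 chloride and anion channel genes 5 were higher and 9 lower (median -0.66). The TRP channels split into 5 higher and 3 lower, the glutamate receptor channels into 3 and 2, and calcium release and store entry into 1 and 2. None of the 13 aquaporin genes was listed.

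**Figure D2:**
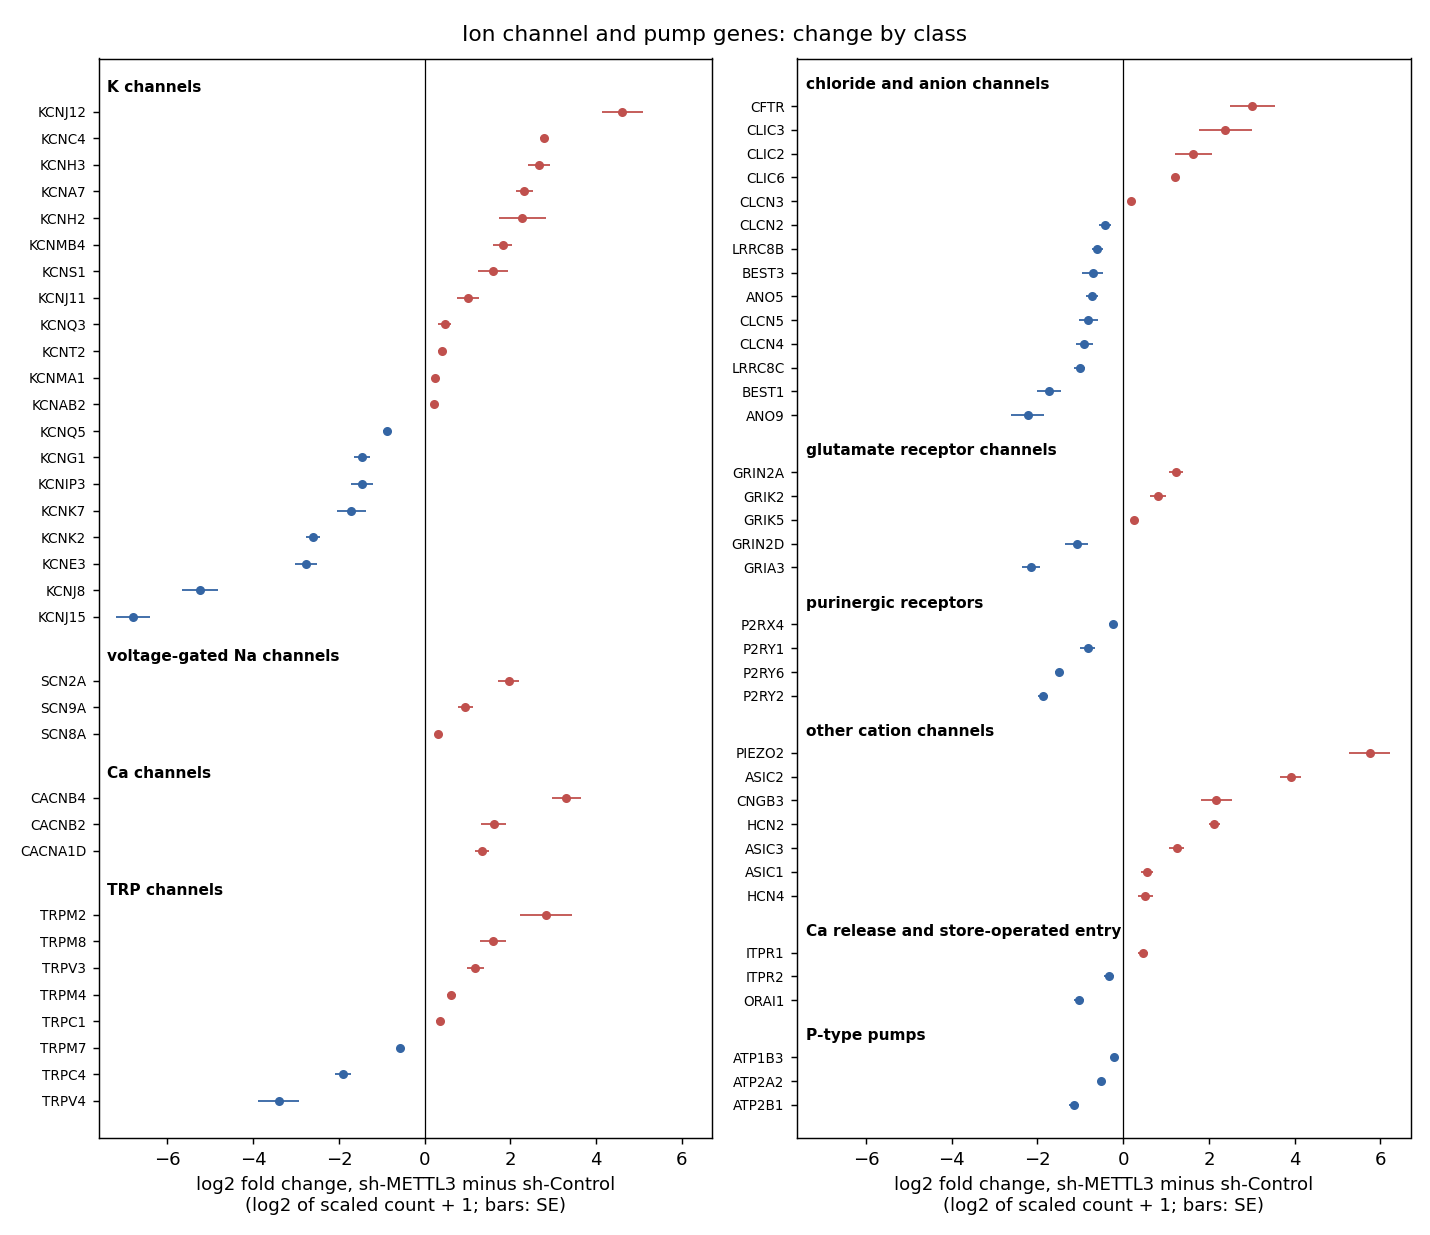
Log2 fold change (sh-METTL3 minus sh-Control) of 70 of the 74 members by family, with bars for the SE from limma. Red points were higher and blue points lower in sh-METTL3. The sodium, calcium and other cation channels lie wholly to the right of 0 and the pumps and purinergic receptors wholly to the left.

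The promoters of the members were read from RefSeq, GRCh38.p14, where 52 of the 74 members had an entry, with 86 start sites in all. The 100 bases before a start are shown for PIEZO2 and KCNC4, which rose, and for 2 starts of KCNK2, which fell, as examples chosen after their values were seen, because these windows overlap no annotated exon and differ in their CG content. The starts used for PIEZO2 and KCNC4 and the first of KCNK2 lie before the GENCODE gene models of the counted genes, and for 52 of the 86 starts the first 40 transcribed bases are in a GENCODE transcript of the gene. CG dinucleotides are in capitals, and each sequence is written 5′ to 3′ on the strand of the gene.
PIEZO2, chr18:11149570-11149669, minus strand: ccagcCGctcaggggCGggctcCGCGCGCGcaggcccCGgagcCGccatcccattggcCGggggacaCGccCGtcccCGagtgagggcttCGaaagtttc
KCNC4, chr1:110210214-110210313, plus strand: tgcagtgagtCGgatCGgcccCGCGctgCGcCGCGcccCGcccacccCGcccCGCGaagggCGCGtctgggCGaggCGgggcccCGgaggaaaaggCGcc
KCNK2, chr1:215005442-215005541, plus strand: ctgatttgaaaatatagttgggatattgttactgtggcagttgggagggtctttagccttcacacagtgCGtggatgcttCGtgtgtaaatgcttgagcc
KCNK2, chr1:215082637-215082736, plus strand: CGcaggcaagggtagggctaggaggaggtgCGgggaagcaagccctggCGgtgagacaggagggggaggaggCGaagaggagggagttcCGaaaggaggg

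The windows of PIEZO2 and KCNC4 held 13 and 17 CG dinucleotides, and those of KCNK2 held 2 and 5. Over the member promoters, the median over the 250 bases before the start was 12 CG for members that rose and 17.5 for members that fell. Both were under the medians of the listed genes with positive and negative fold changes (19 and 20), and above the 11 of all 35116 promoters in the table. The nuclear receptor hexamer AGGTCA, searched on both strands of the same 250 bases, was in 9 of 86 member promoters (10.5%), 8 of 60 for members that rose and 1 of 26 for members that fell, against 9.503% and 8.98% for listed genes with positive and negative fold changes and 12.1% of all promoters. The AP-1 motif TGANTCA was in 8.14% of member promoters, 5.15% and 4.91% of those of listed genes and 6.57% of all, and TATAAA in 6.98%, 6.46% and 7.06%, and 10.7%. Matches are a description of letters only, and a gene with several starts is counted at each.

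The 4 listed pump genes were all lower. ATP2A2, the pump that returns calcium to the endoplasmic reticulum, was at 9008, 8419 and 7984 in sh-Control and 6119, 5958 and 5530.4 in sh-METTL3, so its mean decreased by 30.7% (log2 fold change -0.53, SE 0.06, adjusted p = 9.65e-05). ATP2B1, which exports calcium across the plasma membrane, was at 4193, 2915 and 2820.1 against 1445, 1429 and 1535, so its mean decreased by 55.6% (log2 fold change -1.15, SE 0.13, adjusted p = 6.43e-05). For both calcium pumps each sh-METTL3 library lay under each sh-Control library. Replicate 1 of sh-Control was the high library for ATP2B1, and without it the log2 fold change was -0.96. ATP1B3, a beta subunit of the Na,K-ATPase, decreased by 13.5% (log2 fold change -0.21, adjusted p = 0.0285), a call that was lost in 9 of 17 alternative analyses, with adjusted p-values up to 0.657. Per kb of exonic length it was at 862 and 746 scaled counts, a high level among the members. ATP1B1, the other common beta subunit, was not analysed here.

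Voltage-gated sodium channels open on depolarisation and are best known from excitable cells. SCN2A, a sodium channel of central neurons, was at 38.3, 26.9 and 36.5 in sh-Control and 111, 112 and 189 in sh-METTL3 (log2 fold change 1.96, SE 0.25, adjusted p = 0.000165). Replicate 3 of sh-METTL3 was the high library, and without it the log2 fold change was 1.71. SCN9A, a channel of sensory neurons, was at 98.1, 66.3 and 91.6 against 155, 166 and 170.2 (log2 fold change 0.95, adjusted p = 0.00172). SCN8A, another pore-forming gene, had means of 648 ± 33.3 and 797 ± 9.48 (log2 fold change 0.30). None of these 3 genes overlapped between groups.

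All 3 listed genes of voltage-gated calcium channels were higher. CACNA1D, a pore-forming subunit of L-type channels, was at 89.3, 67.3 and 69.2 in sh-Control and 190.3, 184 and 197 in sh-METTL3 (log2 fold change 1.34, SE 0.16, adjusted p = 9.28e-05). CACNB2, one of the auxiliary beta subunits that bring the pore to the membrane, was at 35.1, 34.6 and 16.8 against 102, 78.6 and 79.5 (log2 fold change 1.61, adjusted p = 0.00157). CACNB4, another beta subunit, was at 3.99, 3.84 and 9.35 against 68.1, 55.4 and 60.5, 10.7-fold higher in the means (log2 fold change 3.30, adjusted p = 4.30e-05). None of the 3 overlapped between groups. Exons of CHDH, a gene on the opposite strand, cover 6.80% of the exonic length of CACNA1D, and strandedness of the counting was not stated. Exons of AC068547.1, a gene on the same strand that was not listed, cover 5.98% of the exonic length of CACNB4.

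The other cation channels held the largest rise of all members on the log2(scaled count + 1) scale, that of PIEZO2, while in the ratio of the means KCNJ12 was higher (97.8-fold against 78.6-fold). PIEZO2, a channel opened by membrane stretch (chr18:10666483-11148762 in GRCh38), was at 3.19, 0.961 and 0 in sh-Control and 113, 125 and 88.5 in sh-METTL3, from 1.38 ± 1.64 to 109 ± 18.6 (log2 fold change 5.75, SE 0.48, adjusted p = 9.39e-06). It was close to absent in the sh-Control libraries, with 5 reads against 297, a ratio of 72.9-fold with an exact 95% interval of 30.9 to 226 that covers counting error only. Most of the sh-Control reads were in replicate 1, and without that library the log2 fold change was 6.28. ASIC2, a proton-gated sodium channel, was at 10.4, 8.65 and 6.54 against 118, 151 and 152, 16.5-fold higher (log2 fold change 3.90, SE 0.24, adjusted p = 1.52e-06). HCN2, a pacemaker channel opened by hyperpolarisation, was at 87.0, 96.1 and 77.6 against 355, 384 and 402, 4.38-fold higher (log2 fold change 2.12, SE 0.13, adjusted p = 1.31e-06).

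HCN2 also had the highest level per kb of these 7 genes in sh-METTL3 (112, from 25.5). The remaining proton-gated channels ASIC1 and ASIC3 had log2 fold changes of 0.55 and 1.24, so the 3 listed ASIC genes were all higher. HCN4, a further pacemaker channel, had a log2 fold change of 0.52 (adjusted p = 0.0386, lost in 5 of 17 alternatives). CNGB3, a subunit of the cone photoreceptor channel, went from 4.66 ± 1.79 to 23.8 ± 2.85.

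Potassium channels showed the widest spread of any family, from a log2 fold change of -6.80 to one of 4.61. Of the 21 listed genes, 15 are of pore-forming families (10 higher and 5 lower), KCNG1 and KCNS1 encode modifier subunits, and KCNE3, KCNMB4, KCNAB2 and KCNIP3 encode auxiliary or interacting proteins. KCNC4, a voltage-gated channel of the fast-repolarising Shaw family (chr1:110211343-110283100), was at 165, 159.5 and 157 in sh-Control and 1148, 1182 and 1023 in sh-METTL3. Its mean rose from 161 ± 4.15 to 1118 ± 83.5, 6.96-fold (log2 fold change 2.79, SE 0.09, adjusted p = 2.50e-08), the smallest adjusted p among the members. KCNH3, of the ether-a-go-go family, was at 19.9, 20.2 and 13.1 against 118, 91.5 and 144 (log2 fold change 2.67, adjusted p = 2.40e-05). KCNA7, of the Shaker family, was at 25.5, 23.1 and 33.6 against 146, 134 and 139 (log2 fold change 2.32, adjusted p = 1.13e-05).

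All 3 were higher in every sh-METTL3 library than in any sh-Control library. KCNMA1, the pore of the large-conductance calcium-activated channel, had the highest level per kb of the potassium channel genes over both groups (84.4 in sh-Control and 99.4 in sh-METTL3). Its scaled counts were 2892, 2963 and 3175 against 3313, 3397 and 3921, a small rise (log2 fold change 0.23, SE 0.07, adjusted p = 0.0267). The groups did not overlap, and the call was lost in 3 of 17 alternatives, among them the omission of replicate 1 or 2 of sh-Control (adjusted p = 0.115 and 0.101). KCNMB4, a beta subunit of the same channel, rose from 27.0 ± 6.47 to 96.0 ± 1.25 (log2 fold change 1.82).

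The largest fall of all members was in KCNJ15, an inward rectifier (chr21:38155549-38307357), which was at 166, 157 and 119.7 in sh-Control and 0, 1.29 and 0 in sh-METTL3. The 3 sh-Control libraries held 499 reads and the 3 sh-METTL3 libraries 1, a ratio of 407-fold with an exact 95% interval of 72.6 to 16090 that covers counting error only (log2 fold change -6.80, SE 0.39, adjusted p = 8.59e-07). KCNJ8, the inward rectifier pore of a vascular type of ATP-sensitive channel, was at 39.1, 52.8 and 56.1 against 0, 1.29 and 0, or 164 reads against 1, 134-fold lower (23.7 to 5309). The other 2 listed inward rectifiers were higher. KCNJ12 had 1 read in sh-Control and 83 in sh-METTL3, 102-fold higher (17.8 to 4072), but shares nearly identical sequence with KCNJ18, so its reads may be split or shared. KCNJ11, the pore of the pancreatic ATP-sensitive channel, went from 15.5 ± 2.60 to 31.9 ± 2.04 (log2 fold change 1.01).

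KCNK2, a background potassium channel that responds to stretch and lipids (chr1:215005775-215237093), was at 438, 478 and 531 in sh-Control and 79.3, 97.9 and 61.6 in sh-METTL3, 6.06-fold lower in the means (log2 fold change -2.60, SE 0.17, adjusted p = 2.04e-06). KCNE3, a small membrane protein that alters the gating of several potassium channels (chr11:74454841-74467729), was at 85.4, 74.9 and 81.3 against 13.1, 12.9 and 7.84, 7.15-fold lower (log2 fold change -2.76, SE 0.26, adjusted p = 2.15e-05). An antisense gene covers 16.6% of the exonic length of KCNE3. Neither gene overlapped between groups. Smaller falls were measured for the M-current subunit KCNQ5 (log2 fold change -0.87), the silent modifier subunit KCNG1 (-1.46), the calcium-binding interactor KCNIP3 (-1.46) and KCNK7, a relative of KCNK2 (-1.71). Among genes that were higher, KCNH2, the channel of the cardiac rapid delayed rectifier, was at 1.60, 0.961 and 3.74 against 8.40, 9.02 and 28.0, with the high value in replicate 3 of sh-METTL3. That is 7 reads against 41, 7.19-fold (3.19 to 18.99). The modifier subunit KCNS1 (log2 fold change 1.59), the sodium-activated channel KCNT2 (0.39), KCNQ3 (0.47) and the accessory subunit KCNAB2 (0.22) were also higher. KCNJ13, an inward rectifier of the apical RPE membrane, was not analysed here.

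Chloride and anion channels had more members lower than higher. BEST1, a calcium-activated anion channel of the basolateral RPE membrane that is mutated in Best disease (chr11:61949821-61965515), was at 79.0, 81.7 and 87.9 in sh-Control and 14.9, 32.2 and 29.1 in sh-METTL3, 3.26-fold lower (log2 fold change -1.73, SE 0.28, adjusted p = 0.000873). The groups did not overlap. Its exons share 1267 bases, 14.2% of their length, with FTH1 on the opposite strand, a gene of very abundant mRNA that was not listed, so that reads of FTH1 may be among its counts if the counting did not use strand.

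ANO9, of the anoctamin family of calcium-activated channels and lipid scramblases, was at 202, 149.9 and 104 against 29.9, 55.4 and 16.8 (log2 fold change -2.23, SE 0.39, adjusted p = 0.00124). LRRC8C, a subunit of the volume-regulated anion channel, was at 419, 415 and 411 against 195, 179 and 245 (log2 fold change -1.02, adjusted p = 0.000131). A further subunit, LRRC8B, had a log2 fold change of -0.60. LRRC8A, the obligatory subunit, was not analysed here. The anoctamin ANO5 (-0.73) and the bestrophin BEST3 (-0.71) were lower on the log2 scale too. Of the 4 listed CLCN genes, which encode chloride channels and exchangers, CLCN2, CLCN4 and CLCN5 were lower (-0.43, -0.90 and -0.82 on the log2 scale), while CLCN3, an endosomal chloride and proton exchanger, was at 2285, 2069 and 2279.8 against 2540.5, 2526 and 2512 (log2 fold change 0.19, adjusted p = 0.0203). The CLCN3 call was lost in 4 of 17 alternatives, among them the omission of sh-Control replicate 2 (adjusted p = 0.0881) and of sh-METTL3 replicate 1 or 2 (0.0641 and 0.0625).

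CLIC6, a chloride intracellular channel gene (chr21:34669389-34718227), was at 1576, 1565 and 1662 in sh-Control and 3415, 3635 and 4021 in sh-METTL3, 2.31-fold higher (log2 fold change 1.20, SE 0.07, adjusted p = 6.82e-07). At 415 and 956 per kb it had the highest level of the class. CLIC2 and CLIC3 were higher too, with 12 reads against 37 for CLIC2, 3.78-fold (1.93 to 7.97), and with only 2 reads against 20 for CLIC3, 12.3-fold (2.98 to 108). CFTR, the chloride channel regulated by cyclic AMP, had no read in the 3 sh-Control libraries and scaled counts of 3.73, 9.02 and 10.1 in sh-METTL3. Against a floor of 3 reads per library it was at least 2.83-fold higher, from 20 reads in all.

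**Figure D3:**
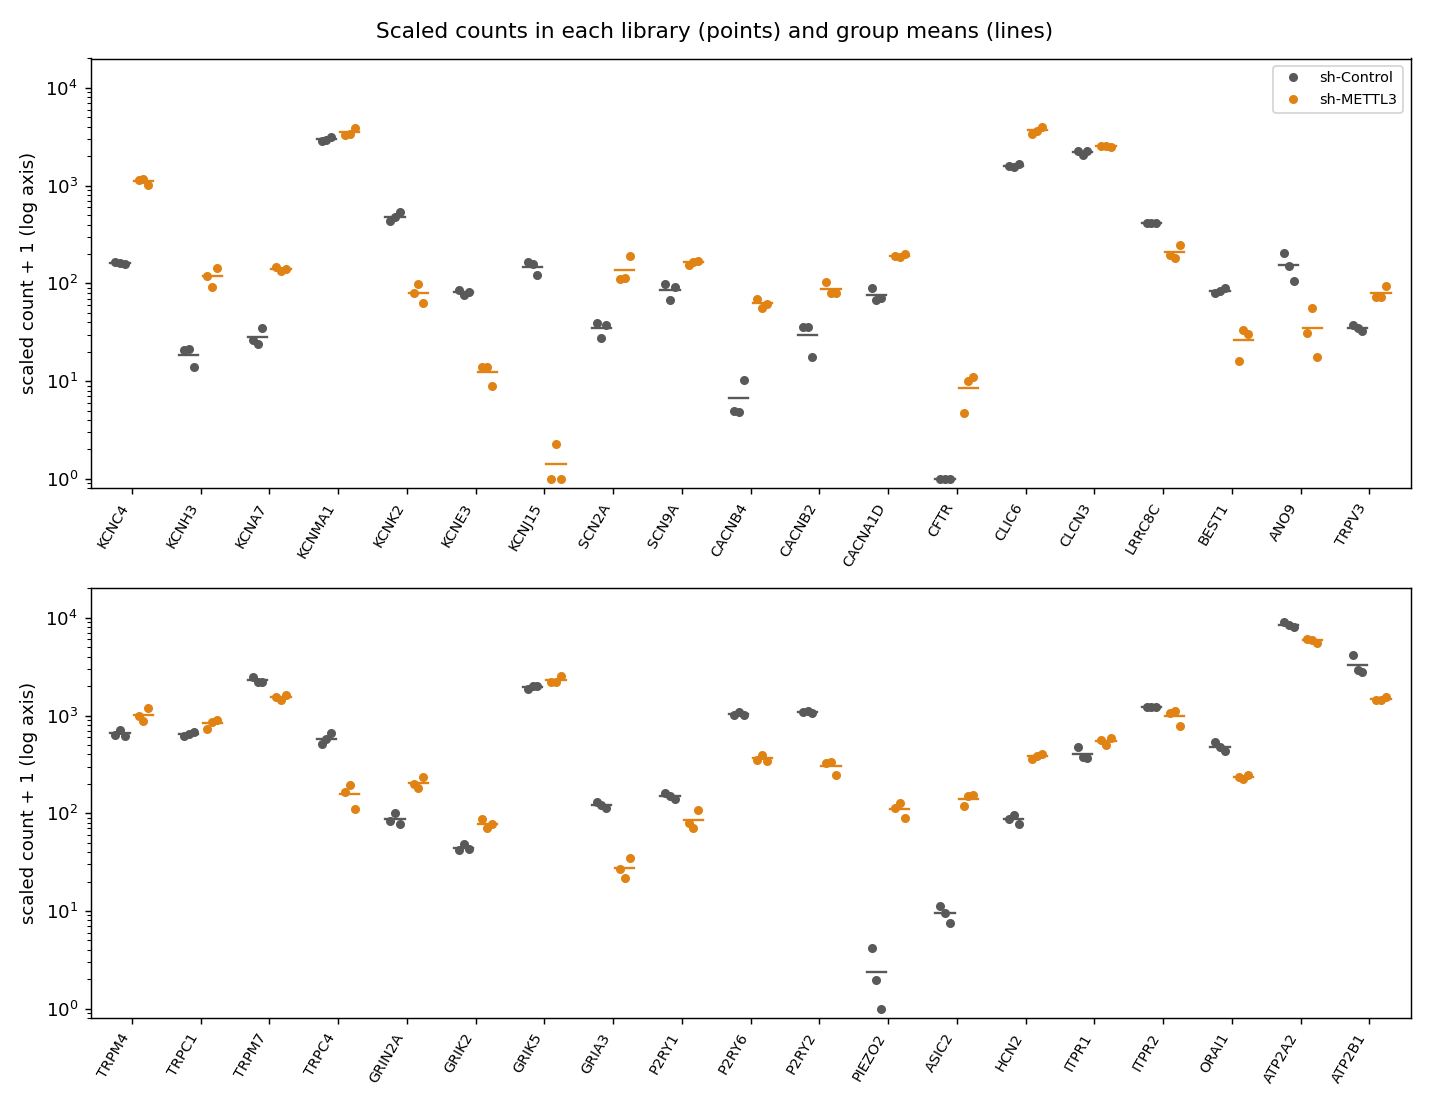
Scaled count + 1 on a log axis in each of the 6 libraries for 38 members named by the selection rule, grey for sh-Control and orange for sh-METTL3, with lines at the group means. The 2 colours do not overlap for any of the genes shown, and KCNJ15, PIEZO2 and CFTR come closest to 0 reads in 1 group.

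The TRP channels, which pass calcium and other cations in response to lipids, temperature or store depletion, went both ways. TRPC4, opened downstream of phospholipase C, was at 508, 569 and 656 in sh-Control and 165, 196 and 111 in sh-METTL3, 3.67-fold lower (log2 fold change -1.90, SE 0.19, adjusted p = 3.27e-05). TRPM7, a magnesium channel with a kinase domain, was at 2486, 2181 and 2206 against 1535, 1436 and 1627 (log2 fold change -0.58, SE 0.07, adjusted p = 0.000116). Both were lower in every sh-METTL3 library. TRPV4, an osmotically sensitive channel, had 33 reads in sh-Control and none in sh-METTL3, at least 2.99-fold lower against the floor of 3 reads per library.

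On the higher side, TRPM4, a calcium-activated channel that passes sodium, was at 631, 717 and 618 against 981, 883 and 1181 (log2 fold change 0.62, adjusted p = 0.00117). TRPC1, which assembles with other TRPC subunits, was at 617, 648 and 685 against 732, 857 and 900.3 (log2 fold change 0.35, adjusted p = 0.011), and was past the threshold in every alternative but the omission of sh-Control replicate 1 (adjusted p = 0.0536). TRPC1 and TRPM7 had nearly equal levels per kb over both groups, the highest of the TRP genes (136 and 174 for TRPC1, 185 and 124 for TRPM7). TRPV3, a warmth-sensitive channel, was at 36.7, 33.6 and 31.8 against 70.9, 72.2 and 94.1 (log2 fold change 1.18, adjusted p = 0.00114). None of the 3 overlapped between groups. TRPM8 and TRPM2 were higher from low levels, TRPM8 from 10.5 ± 2.69 to 33.6 ± 7.16 and TRPM2 with 3 reads against 36, 14.7-fold (4.65 to 74.8).

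Purinergic receptors sense extracellular nucleotides, and all 4 listed genes were lower. P2RY2, the receptor for ATP and UTP (chr11:73218298-73236352), was at 1098, 1116 and 1061 in sh-Control and 325, 335 and 245 in sh-METTL3, 3.62-fold lower (log2 fold change -1.87, SE 0.11, adjusted p = 1.34e-06). P2RY6, the receptor for UDP that lies next to it (chr11:73264505-73298617), was at 1003, 1075 and 1010.4 against 348, 398 and 344, 2.83-fold lower (log2 fold change -1.50, SE 0.08, adjusted p = 6.49e-07). P2RY1, the receptor for ADP, was at 161, 149 and 138 against 78.4, 69.6 and 106 (log2 fold change -0.83, SE 0.18, adjusted p = 0.00485). These 3 are coupled to G proteins and are not channels, although the symbol rule includes them, and their groups did not overlap. P2RX4, a channel opened by ATP, decreased by 15.5% (log2 fold change -0.24, adjusted p = 0.0268), a call that was lost in 9 of 17 alternatives, with adjusted p-values up to 0.417.

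Downstream of these receptors, the inositol trisphosphate receptors that release stored calcium moved in opposite directions. ITPR1 was at 472, 372 and 368 in sh-Control and 559, 503.9 and 592 in sh-METTL3 (log2 fold change 0.45, adjusted p = 0.00982), with an adjusted p of 0.0534 without sh-Control replicate 2. ITPR2 was at 1223, 1229 and 1228 against 1071, 1099 and 780.5 (log2 fold change -0.34, adjusted p = 0.0456). The low value of ITPR2 in sh-METTL3 replicate 3 set much of its difference, since the log2 fold change was -0.18 without that library (adjusted p = 0.0335), and the call was lost without any 1 of the sh-Control libraries (0.126, 0.140 and 0.118) and in 9 of 17 alternatives in all. ORAI1, the pore of the store-operated calcium channel, was at 534, 480.4 and 429 against 234, 222 and 247, 2.05-fold lower (log2 fold change -1.03, SE 0.11, adjusted p = 4.41e-05). ORAI1 did not overlap between groups, and with ATP2B1 and ATP2A2 it was lower in every alternative.

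Glutamate receptor channels, best known from synapses, were the last class. GRIK5, a kainate receptor subunit, had by far the highest level per kb of the class (389 in sh-Control and 461 in sh-METTL3), with scaled counts of 1865, 2004 and 1986 against 2178, 2226 and 2538 (log2 fold change 0.24, adjusted p = 0.0174). Without sh-Control replicate 1 its adjusted p was 0.0817. GRIK2, a further kainate subunit, was at 40.7, 48.0 and 42.1 against 86.8, 69.6 and 76.1 (log2 fold change 0.81, adjusted p = 0.0066). GRIN2A, a subunit of the NMDA receptor, was at 83.0, 99.9 and 76.6 against 198, 179 and 234 (log2 fold change 1.23, adjusted p = 0.000214). These 3 were higher in every sh-METTL3 library. GRIA3, an AMPA receptor subunit, was at 131, 119 and 111 against 26.1, 20.6 and 33.6, from a mean of 120.4 ± 9.86 to one of 26.8 ± 6.51 (log2 fold change -2.15, SE 0.22, adjusted p = 3.68e-05), and GRIN2D was lower too (-1.08).

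Measured against the sh-Control mean, the median of the 74 members was at 0.21, 0.32 and 0.37 on the log2 scale in sh-METTL3 replicates 1 to 3. Replicate 3 of sh-METTL3 stood apart from the other two on the second principal component of all listed genes (3.36% of the variance, against 89.8% for the first, which separated the groups). Without it, 69 members passed, 40 higher and 29 lower. Most of all listed genes also passed when a library was left out, with the range given in the closing section.

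The calls of 18 members were lost in at least 1 of the 17 alternatives, though none of the 74 turned its direction. Kept calls and directions are likely for any gene of this table, as the authors had called every listed gene. These counts were not set beside those of all listed genes. Leaving out 1 library also leaves fewer samples to estimate the spread. HCN4 was not past the threshold without sh-Control replicate 1 or 3 (0.151 and 0.131) or sh-METTL3 replicate 2 or 3 (0.116 and 0.113). KCNQ3 was lost without sh-Control replicate 2 or 3 (0.106 and 0.179) or sh-METTL3 replicate 2 or 3 (0.165 and 0.106), and KCNAB2 without sh-Control replicate 1 or 3 (0.0784 and 0.0680) or sh-METTL3 replicate 2 (0.0945). These are genes with small rises.

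Of the lower genes, ATP1B3 was lost without each sh-Control library in turn (adjusted p = 0.117, 0.0608 and 0.0714) and without sh-METTL3 replicate 1 or 2 (0.0797 and 0.133), and P2RX4 without each sh-Control library (0.0604, 0.116 and 0.0621) and without sh-METTL3 replicate 1 or 3 (0.0777 and 0.0627). CLCN2 was lost without each sh-Control library (0.119, 0.0835 and 0.0578) and without sh-METTL3 replicate 2 or 3 (0.116 and 0.0596). BEST3 was lost without sh-Control replicate 1 or 2 (0.208 and 0.137) or sh-METTL3 replicate 1 or 3 (0.0671 and 0.126), and its log2 fold change moved to -0.46 without sh-METTL3 replicate 3. The calls of CLCN5 without sh-Control replicate 1 (0.0816), of CLIC3 and ASIC1 without sh-Control replicate 2 (0.0501 and 0.0652), and of CLIC2 without sh-Control replicate 2 or sh-METTL3 replicate 1 (0.0532 and 0.0600) were lost as well. Opposite-strand transcripts cover over 5% of the exonic length of further members, at most 24.7% in CLCN2, and 13.0% in ASIC2, 10.8% in KCNJ8, 8.29% in CACNB2 and 8.17% in SCN9A.

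Some members that fell lie among genes that fell. For each member, the 25 listed genes on either side were counted, as a description without a test. A median of 58% of the neighbours of the 32 lower members was lower, against 52% around all listed genes that were lower, and a median of 50% of the neighbours of the 42 higher members, against 48% around all that were higher. In 4 of the 32 lower members (12.5%) at least 80% of the neighbours were lower, a share close to that of all listed genes that were lower (443 of 4054, or 10.9%), and all 4 are on chromosome 11. They are KCNE3 (82%), P2RY2 (84%), P2RY6 (88%) and KCNK7 (88%), and KCNK7 is named here because of its value.

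On chromosome 11, 76.6% of 578 listed genes were lower, and 7 of its 8 members were lower, the higher one being KCNJ11. BEST1, also there, had 74% lower neighbours and ANO9 had 33.3%. On chromosome 15, 68.6% of 315 listed genes were lower, with TRPM7 lower (72% of its neighbours) and HCN4 higher (52%). The part of the neighbourhood in the level of these members was not tested. By contrast, the 12 members on chromosome 12 (8 lower, ORAI1, ATP2A2 and ATP2B1 among them) lie on a chromosome where 52.6% of listed genes were lower.

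**Figure D4:**
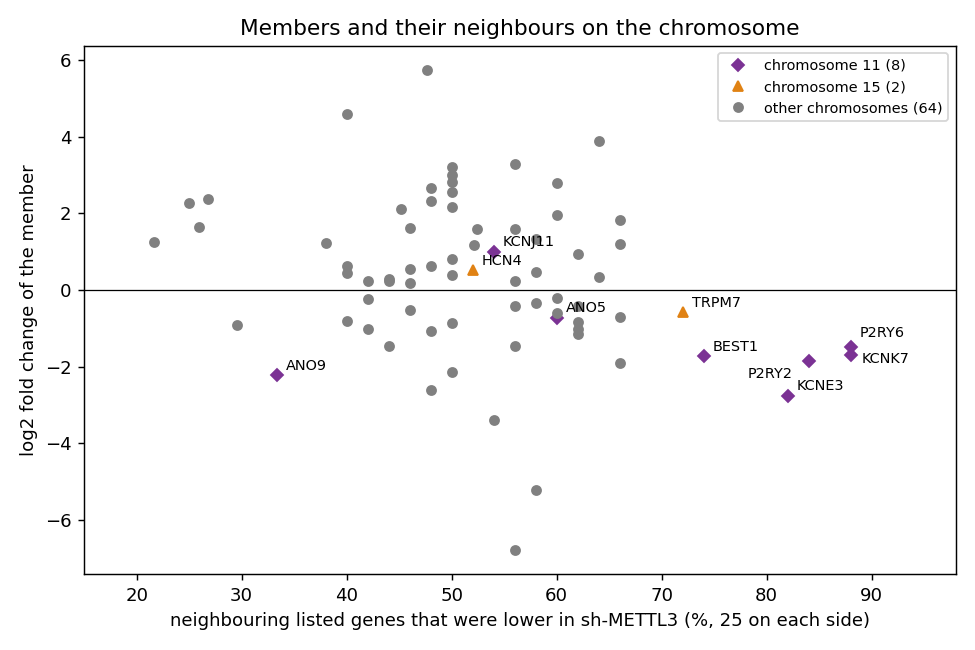
Log2 fold change of each member (vertical axis) against the percentage of its neighbouring listed genes, 25 on each side, that were lower in sh-METTL3 (horizontal axis). Purple diamonds are the 8 members on chromosome 11, orange triangles the 2 on chromosome 15 and grey circles the 64 others, and the 4 members with at least 80% lower neighbours are all diamonds below 0.

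Other ion transport genes outside the symbol rule were split evenly. Of a list of 87 genes (exchangers, cotransporters, their kinases and further channels) 40 were listed, 19 higher, 19 lower and 2 not past the threshold, with a median log2 fold change of 0.05. That is 47.5% higher and 47.5% lower, near the 46.6% and 51.3% of all listed genes. Cell identity markers were among the listed genes as well. As 97.9% of all listed genes passed, and 33.8% of annotated protein-coding genes were listed, their counts are given as a description. Of 18 RPE markers 10 were listed, 7 higher and 3 lower with BEST1 among the latter, and their summed scaled count was 28980 to 31080 in sh-Control and 44070 to 47550 in sh-METTL3, with RPE65, RLBP1 and TYR not listed. KRT8, KRT18 and EZR, which epithelia in general express, carried that rise, and of the other 7 listed markers 4 were higher and 3 lower. The sum of these 7 was 2647 to 2743 in sh-Control and 1956 to 2000 in sh-METTL3, but 1267 to 1324 against 1792 to 1816 without SERPINF1. SERPINF1, the gene of the secreted factor PEDF, was at 1404 and 170.1 in the means (log2 fold change -3.04), and the melanosome gene PMEL at 368 and 105 (-1.80). On the higher side the retinol dehydrogenase gene RDH5 was at 69.99 and 207, the retinol-binding protein receptor gene STRA6 at 13.0 and 90.06, the retinol acyltransferase gene LRAT at 129 and 258, and the transcription factor gene MITF at 623 and 1121, so that markers of the labelled cell type were present in both groups. Of 10 mesenchymal markers 5 were listed, 4 of them lower, with sums of 12920 to 14990 against 6692 to 8702. Of 10 neuronal markers only SYP was listed (10.3 to 12.0 against 20.6 to 33.6), none of 5 endothelial markers was, and ITGAM and CD14 of 5 immune markers were, both lower (102 to 122 against 6.72 to 17.7). The part of these marker changes in the levels of the ion channel genes was not tested.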

How the data were processed

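RNA of LPS-stimulated ARPE-19 cells was sequenced, 3 libraries with sh-Control and 3 with sh-METTL3, grouped by the labels. The submitters' processing notes name HISAT2 2.0.5 and hg38, while the study's methods name Cufflinks for assembly and for differential expression. The read counter and its strandedness were not given in the sources used here. The authors deposited 1 table, in which each library column is a signal, the gene's reads divided by a library size factor, and all values were whole reads within 0.05 reads after division by the step that 1 read makes. The starts, ends and exonic lengths equal those of GENCODE release 29 for all 7758 genes. The authors also deposited log2 fold changes and p-values of their own comparison. The largest adjusted p-value showed that only called genes were listed. The relation of their adjusted to raw p-values gave an inferred number of 22977 tested genes, of which 33.8% were listed. That number enters the adjusted p-values given here, and nothing else of their comparison was used. Symbols that a spreadsheet had turned into dates (13) were restored from GENCODE.

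Differences of log2(scaled count + 1) were fitted on all listed genes with limma 3.58.1 (R 4.3.3) with an intensity trend, with Benjamini-Hochberg adjustment over 22977 genes. edgeR 4.0.16, DESeq2 1.42.0 and limma-voom, run on the recovered reads, were among the alternatives. On simulated data, limma recovered 90% of 200 genes changed by a log2 value of 1 and called 7 unchanged genes. The simulation left most genes unchanged, gave all genes the same dispersion and adjusted over the 7758 genes alone. Because the reported calls differ in these points, it does not give their error rate. Libraries of a group differed beyond sampling noise (chi-square per degree of freedom 3.89 to 17.6). The reads per library limit the precision of low genes, and intervals from reads (exact, 95%) cover counting error only. Members with their lists were chosen with earlier results of these data known. Named with values in each library were METTL3 and, in each class, up to 3 members with the largest rise and 3 with the largest fall that passed the threshold without overlap and had a mean of 50 or more in either group, the member of highest level per kb, and a few fixed genes, BEST1 and CFTR among them. Results on a few members are not reported here. Other members are named after their values were seen.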

Additional observations from a re-analysis of the deposited data

How the results depend on the processing

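Of 74 members, 56 were past the threshold in each of the 17 refits that gave them a value, and no member's fold change turned its sign in any. Because the authors had called every listed gene, such stability cannot be read as particular to the members. For the 40 named members, 657 of 677 refitted values stayed on the same side of the threshold. The members called numbered 62 to 69 when 1 library was left out (6541 to 7290 of all listed genes). They numbered 69 with RLE size factors in edgeR (6574 of all listed genes). Without the intensity trend they numbered 64, and at a threshold of 0.01 they numbered 56. With an absolute log2 fold change of at least 1 also required, 45 members and 2369 listed genes were called. The median log2 fold change of the members was 0.45 with RLE size factors, which shift the median of all listed genes by 0.12 and move higher calls from 47.6% to 56.3% of calls, mainly as lower calls drop from 3983 to 2871 (higher calls 3614 and 3703, and among members 42 in both with 32 and 27 lower, so from 56.8% to 60.9% higher), 0.22 over genes with a mean of at least 50, and 0.28 to 0.34 with 1 library left out. With RLE factors METTL3 had a log2 fold change of -0.17 (adjusted p = 0.261), against -0.25 with TMM factors (0.0573), -0.26 with listed-gene totals (0.0550), -0.30 without the trend (0.120), and -0.38 to -0.18 with 1 library left out. The value of -0.18 came from the omission of sh-METTL3 replicate 3. The cause of these changes was not tested. A replicate block left 73 members called, all among the 74, and 7481 listed genes, of which 7406 were also called without it. Same-numbered libraries showed no shared deviation, with correlations of deviations of 0.0036, 0.019 and -0.015. With few libraries and genes chosen for a group difference, this cannot show whether the samples were paired. Depth limits the members with few reads. Folds of those with 1 to 12 reads in 1 group are given with intervals and of those with 0 reads as bounds.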
